A study of Mus musculus with 12 samples.

Results

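Immunoglobulin V and C genes were read out in subcutaneous fat and liver of male mice that carried either a human HKDC1 vector or an empty one. They were taken as every gene of the count table whose annotated biotype is an immunoglobulin variable (V) or constant (C) gene, which gave 231 of 54532 genes. Of these, 218 are V genes (113 heavy, 102 kappa and 3 lambda) and 13 are C genes (8 heavy, the kappa gene Igkc and 4 lambda genes). The heavy chain genes lie on chromosome 12, the kappa genes on chromosome 6 and the lambda genes on chromosome 16.

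The 4 groups of 3 libraries each, 12 in all, were compared. At 10 weeks of age the mice received, by tail vein, an adeno-associated virus of serotype 8 with the thyroxin-binding globulin promoter (TBGp), which is active in hepatocytes. In hHKDC1 OE mice the vector carried full-length human HKDC1, a hexokinase domain protein, and in null mice it carried no gene. Both groups were then kept on a low-fat diet for 16 weeks. The sample descriptions call replicates 2 and 3 of hHKDC1 OE in each tissue knockouts, whereas their titles and treatment fields give overexpression, which was followed here. The study counts mice as the replicates of its fat sequencing. For liver nothing in the labels says that the libraries of a group come from separate mice, so p-values there may measure technical spread only.

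An antibody is built from paired heavy and light chains. During B cell development a V segment is joined to D and J segments (heavy) or to a J segment (kappa and lambda), and the joined exon is spliced to a constant gene. The constant gene sets the class: Ighm and Ighd encode IgM and IgD of naive B cells, and Ighg1, Ighg2b, Ighg2c and Ighg3 (IgG), Igha (IgA) and Ighe (IgE) are reached by class switching. Plasma cells, which secrete antibody, make far more of these transcripts than B cells do. In bulk tissue, fewer cells of a type and less RNA per cell cannot be told apart.

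Many of these genes are near copies, which can matter for how reads were assigned. In GENCODE M21 (GRCm38), 106 of the 218 V genes had a closest copy with at least 95% identical coding bases, and for 2 the copy was identical. The first 150 shared bases of the lambda constant genes Iglc2 (chr16:19198396-19200351, minus strand) and Iglc3 (chr16:19065230-19065681, minus strand) are given with the 7 bases that differ in capitals. Over 314 aligned bases they were 96.5% identical.
Iglc2: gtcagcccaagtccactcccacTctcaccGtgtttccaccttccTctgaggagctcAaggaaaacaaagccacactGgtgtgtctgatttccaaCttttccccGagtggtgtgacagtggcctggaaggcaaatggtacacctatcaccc
Iglc3: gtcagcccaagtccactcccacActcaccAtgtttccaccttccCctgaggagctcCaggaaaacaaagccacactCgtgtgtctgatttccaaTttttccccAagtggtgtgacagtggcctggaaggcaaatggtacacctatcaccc

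The V genes Iglv1 (chr16:19085017-19085500, minus strand) and Iglv2 (chr16:19260401-19260859, minus strand) form another such pair, 96.9% identical over 351 bases. In the first 150 coding bases the 6 that differ are in capitals. How reads of such copies were assigned was not tested, so their counts could be uncertain as to the copy.
Iglv1: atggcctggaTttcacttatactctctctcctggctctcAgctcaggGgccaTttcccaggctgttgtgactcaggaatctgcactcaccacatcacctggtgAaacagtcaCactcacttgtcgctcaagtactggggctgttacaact
Iglv2: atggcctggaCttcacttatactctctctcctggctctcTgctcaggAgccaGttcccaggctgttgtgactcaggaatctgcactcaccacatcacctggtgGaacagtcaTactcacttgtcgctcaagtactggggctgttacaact

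A further 3 V genes are shown because they took large shares of V counts in single fat libraries. These are the heavy gene Ighv11-2 (chr12:114048241-114048812, minus strand), the kappa gene Igkv14-126 (chr6:67896172-67896642, plus strand) and the heavy gene Ighv1-80 (chr12:115912344-115912776, minus strand). Their first 150 coding bases are given, with the first coding exon in capitals (46, 55 and 46 bases), which encodes most of the leader peptide.
Ighv11-2: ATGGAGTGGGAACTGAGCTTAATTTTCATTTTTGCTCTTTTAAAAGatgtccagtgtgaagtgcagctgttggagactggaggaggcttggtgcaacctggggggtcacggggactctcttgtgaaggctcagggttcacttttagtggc
Igkv14-126: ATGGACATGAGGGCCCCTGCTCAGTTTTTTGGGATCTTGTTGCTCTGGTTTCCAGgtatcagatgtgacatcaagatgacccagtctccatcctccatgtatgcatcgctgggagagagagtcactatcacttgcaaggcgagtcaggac
Ighv1-80: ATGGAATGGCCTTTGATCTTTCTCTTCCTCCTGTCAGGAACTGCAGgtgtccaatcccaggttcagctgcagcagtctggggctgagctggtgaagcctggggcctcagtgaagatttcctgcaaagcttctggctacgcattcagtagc

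The 12 libraries held 15496019 to 19954971 gene counts. Markers of the labelled tissue were present: 6 adipocyte genes summed to 12654 to 17742 CPM (counts scaled to library size, normalized by TMM) in fat and 4.95 to 15.5 CPM in liver. The 6 hepatocyte genes summed to 80143 to 138204 CPM in liver and 467 to 4820 CPM in fat. The endogenous mouse Hkdc1 gene had 0 to 8 counts per library, and the human transgene is not analysed here, so the vector could not be checked from these counts.

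Immunoglobulin transcripts were higher in hHKDC1 OE fat than in null fat in every library. Summed over the 231 genes, null fat held 567, 184 and 358 CPM in replicates 1, 2 and 3, and hHKDC1 OE fat held 2429, 690 and 1527 CPM. The groups did not overlap, with means of 370 and 1548 CPM. The mean log2 values, taken of CPM + 0.5, differed by 2.03 (two-sided exact permutation p = 0.1, the smallest that 3 against 3 libraries allow). As a share of all counts the genes took 0.0232% to 0.0735% in null fat and 0.0991% to 0.341% in hHKDC1 OE fat. With 1 library left out the difference ran from 1.60 (without null replicate 2) to 2.52 (without hHKDC1 OE replicate 2).

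Most of the signal in null fat was a single gene. Ighm, the IgM heavy chain constant gene, had 11406, 3655 and 8936 counts in null fat against 16752, 14005 and 8903 in hHKDC1 OE fat, so that the groups overlapped. Its log2 fold change was 0.53 ± 0.40 (SE; adjusted p = 0.492, edgeR). With Ighm left out, the other 230 genes summed to 71.3, 20.7 and 14.8 CPM in null fat. In hHKDC1 OE fat they summed to 1832, 184 and 1115 CPM, and the log2 difference was 4.66.

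The kappa constant gene and most other constant genes differed more between the fat groups than Ighm did, although in edgeR's fit of the 6 fat libraries none passed the test across all genes. Igkc, the constant part of kappa light chains, had 627, 135 and 126 counts in null fat against 25463, 2484 and 9822 in hHKDC1 OE fat, a log2 fold change of 5.18 ± 1.08 (SE; adjusted p = 0.133 in edgeR and 9.1e-05 in DESeq2). Ighd, the IgD gene, had 36, 17 and 40 counts against 5417, 323 and 3056 (log2 fold change 6.41 ± 1.06, adjusted p = 0.133 in edgeR and 8.7e-08 in DESeq2). In each of these genes hHKDC1 OE replicate 2 was the lowest of its group and still above every null library.

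Among the IgG genes, Ighg2b had 43, 13 and 12 counts in null fat against 3867, 242 and 2863 in hHKDC1 OE fat. Ighg2c had 118, 21 and 7 counts against 4233, 270 and 2779. Ighg1 had 2, 0 and 0 counts against 2283, 121 and 988. Ighg3 was at 0 in all null fat libraries and at 2080, 116 and 189 counts in hHKDC1 OE fat, at least 229-fold higher when each null library is set to a floor of 3 counts, and at least 51.1-fold without hHKDC1 OE replicate 1. All 4 IgG genes were above the null range in every hHKDC1 OE fat library.

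Igha, the IgA gene, did not follow them: it had 444, 163 and 118 counts in null fat against 353, 148 and 167 in hHKDC1 OE fat (log2 fold change -0.34 ± 0.57, adjusted p = 0.766, edgeR). Its groups overlapped. Ighe, the IgE gene, had 0 counts in null fat against 9, 0 and 3 in hHKDC1 OE fat.

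The lambda constant genes were low in null fat and higher in hHKDC1 OE fat. Iglc1 had 3, 11 and 6 counts in null fat against 424, 35 and 329 in hHKDC1 OE fat. Iglc2 had 0, 11 and 1 against 1245, 101 and 738. Iglc3 had 0 counts in null fat against 566, 27 and 326 in hHKDC1 OE fat, at least 95.4-fold higher against the same floor, and at least 63.4-fold without hHKDC1 OE replicate 1. Iglc4 had 0 counts in null fat against 2, 0 and 8 in hHKDC1 OE fat. The plot of constant gene counts shows how far Ighm and Igha stood from the rest.

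**Figure D1:**
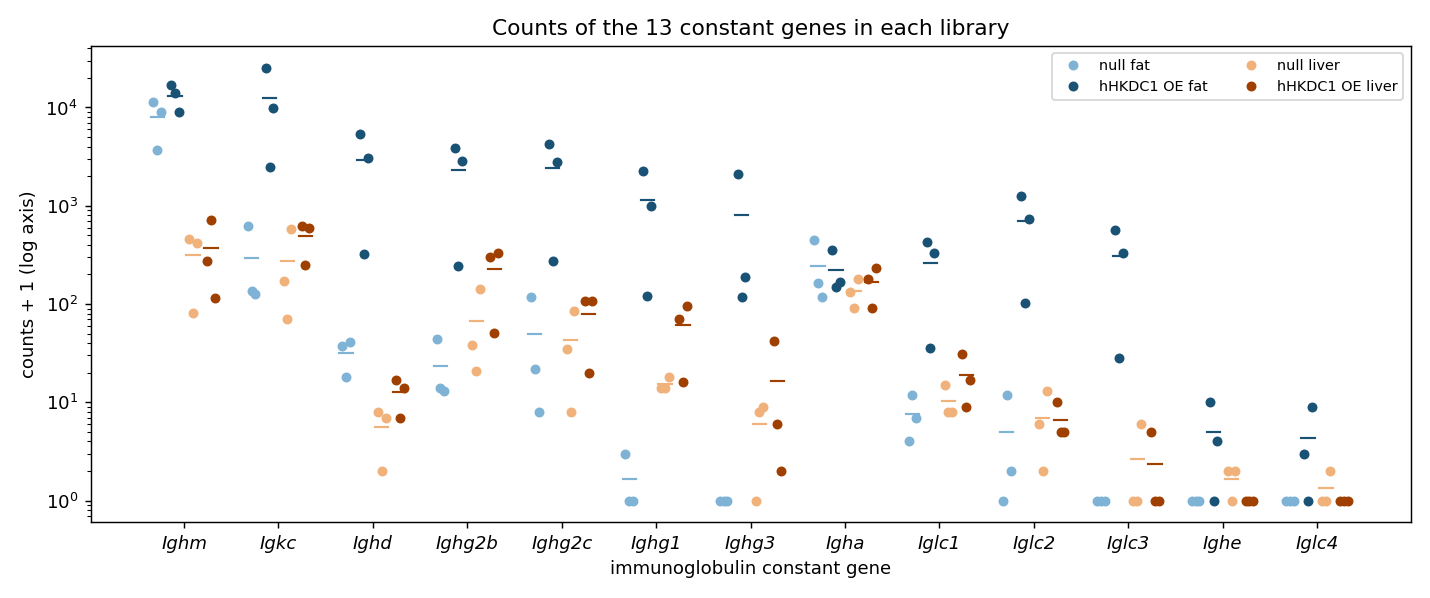
Counts of the 13 constant genes plus 1, on a log axis, in each of the 12 libraries; points are libraries, short lines are group means and colours are the 4 groups. Ighm had 3655 to 16752 counts in the 6 fat libraries and Igha overlapped between vector groups, while Igkc, Ighd, the IgG genes and Iglc1, Iglc2 and Iglc3 were higher in every hHKDC1 OE fat library than in any null fat library.

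In edgeR's fit of the 6 fat libraries with its filter on low counts, no immunoglobulin gene passed the test across all genes. In edgeR's quasi-likelihood test, 27 members (16 V and 11 C genes) had enough counts, and 204 were not tested, of which 35 had no count in fat. At an adjusted p under 0.05, 0 of 27 were higher, as were 0% of all 16380 genes tested, and the lowest adjusted p of a member was 0.133. At an unadjusted p under 0.05, 21 of the 27 were higher and 0 lower, against 11.3% and 6.39% of all genes. DESeq2 called 21 of the 27 higher, against 6.65% of all genes. A member could pass the filter through its counts in hHKDC1 OE fat alone, so these counts over tested members are not evidence about the 231.

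Without a filter, 196 members had a count in fat. In 84 of them every hHKDC1 OE library was above every null library, against 9.06% of all 29853 genes with a count in fat, and in 0 of them every library was lower, against 6.79%. The count of calls depended on the fit and on hHKDC1 OE fat replicate 2. With all 6 libraries and no filter on low counts, edgeR called 34 of 196 members higher, against 2.42% of all genes. Fitted with the liver libraries it called 19 of 30, against 4.51%, and with the replicate number as a block 9 of 27, against 0.971%. Without hHKDC1 OE fat replicate 2 it called 65 of 83 tested members higher, against 11.4% of all genes. Leaving out any of the other 5 fat libraries gave 0 calls. Scaling by library size alone moved the median log2 fold change of all genes from -0.05 to 0.11 and also gave 0 calls.

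Summed levels of B cell, T cell and lymph node stroma genes were also higher in every hHKDC1 OE fat library than in any null fat library. The 12 B cell genes, among them Ms4a1, Cd79a and Pax5, summed to 4.61, 1.88 and 3.998 CPM in null fat against 760, 43.3 and 580 CPM in hHKDC1 OE fat. Cd79a, a signalling part of the B cell receptor, had 3, 8 and 9 counts against 5212, 260 and 1870. The 8 T cell genes summed to 4.24 to 10.3 CPM in null fat and 28.3 to 437 CPM in hHKDC1 OE fat, again lowest in replicate 2. The 6 genes of lymph node stroma and venules summed to 1.07 to 3.87 CPM in null fat against 112, 8.20 and 69.7 CPM in hHKDC1 OE fat. In this list Glycam1, made by lymph node venules, had 0, 0 and 1 counts against 591, 43 and 348. Ccl19 and Chst4 were at 0 in null fat, against 16, 0 and 23 counts for Ccl19 and 50, 4 and 28 for Chst4. Ccl21a overlapped between groups, with 20, 1 and 0 counts against 1299, 15 and 76. Of the 6 genes 3 were tested and 0 passed in edgeR, as did 0% of all genes. The 6 macrophage genes summed to 137 to 308 CPM in null fat against 390 to 457 CPM in hHKDC1 OE fat. Hepatocyte genes summed to 1618 to 4820 CPM in null fat, above the 467 to 1301 CPM of hHKDC1 OE fat, and the adipocyte sums overlapped. The part of these cell types, or of lymph node tissue, in the immunoglobulin difference was not tested.

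All 12 B cell genes were tested in fat and 0 passed an adjusted p of 0.05 in edgeR, while 12 were higher at an unadjusted p under 0.05 (against 11.3% of all genes) and in DESeq2 (against 6.65%), the shares to set beside the lists that follow. Of the 12 plasma cell genes, 11 were tested, 0 passed, 8 were higher at an unadjusted p under 0.05 and DESeq2 called 6. Jchain, which joins IgM and IgA into polymers, had 169, 46 and 35 counts in null fat against 1722, 356 and 606 in hHKDC1 OE fat. Xbp1, a secretory regulator that many tissues express, had 2675, 2767 and 3373 counts against 3773, 3604 and 3459 (adjusted p = 0.619, edgeR).

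Of 12 genes of V(D)J recombination, class switching and germinal centres, 5 were tested in fat and 0 passed, with 2 higher at an unadjusted p under 0.05 and 0 called by DESeq2. Rag1, the recombinase, was at 0 in all 12 libraries. Of 10 Fc receptor and antibody transport genes all were tested, 0 passed, and 5 were higher at an unadjusted p under 0.05 as well as in DESeq2. The IgM receptor gene Fcmr had 5, 5 and 5 counts in null fat against 2427, 144 and 1279 in hHKDC1 OE fat. Fcgrt, which encodes the neonatal Fc receptor, had 4441, 4868 and 5568 counts against 5121, 6113 and 4361 (adjusted p = 0.744, edgeR).

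**Figure D2:**
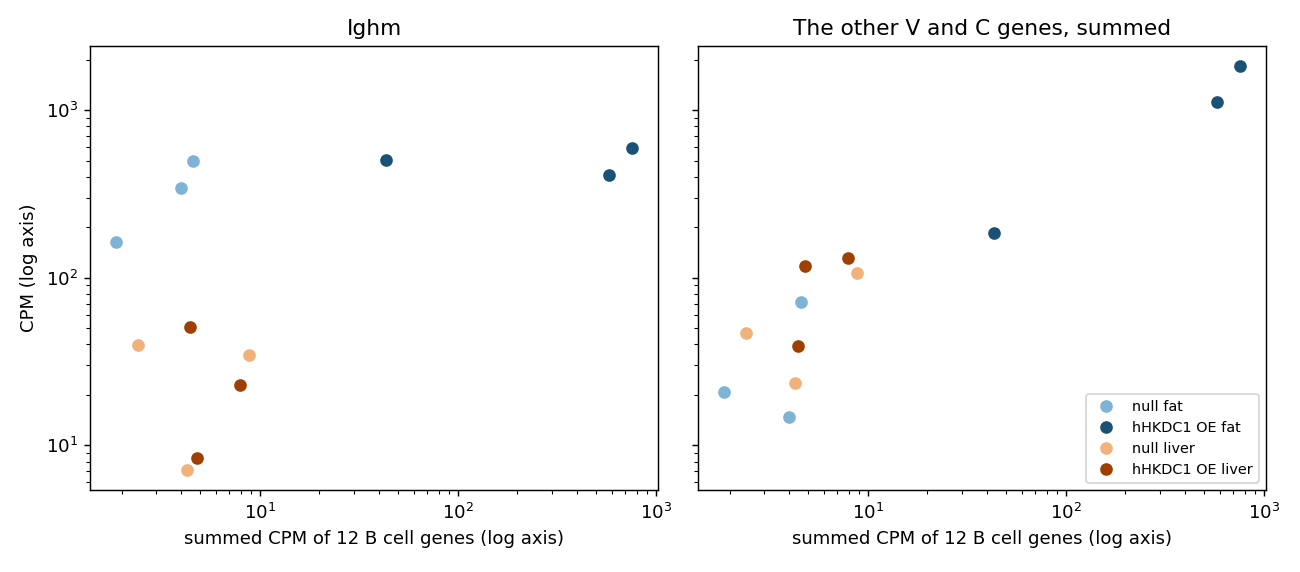
CPM of Ighm (left) and summed CPM of the other 230 immunoglobulin genes (right) against the summed CPM of 12 B cell genes, both axes logarithmic; each point is 1 of 12 libraries. In null fat, B cell genes summed to 1.88 to 4.61 CPM while Ighm lay at 163 to 496 CPM, overlapping the 412 to 597 CPM of hHKDC1 OE fat; the other members lay at 14.8 to 71.3 CPM in null fat and at 184 to 1832 CPM in hHKDC1 OE fat.

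Isotype balance was compared per length, as each gene's share of the summed FPKM (counts divided by gene length and by each library's size factor) of the heavy constant genes. Ighm made up 95.4%, 95.5% and 98.4% of this sum in null fat against 48.8%, 92.4% and 47.1% in hHKDC1 OE fat. The 4 IgG genes together took 1.67%, 1.02% and 0.203% in null fat against 34.8%, 4.81% and 36.2% in hHKDC1 OE fat. Ighd took 0.299% to 0.441% in null fat against 15.7%, 2.11% and 16.1% in hHKDC1 OE fat. Igha took 2.63%, 3.01% and 0.919% in null fat, all above its 0.726%, 0.690% and 0.625% in the hHKDC1 OE group.

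For the Ighm, IgG and Igha shares the fat groups did not overlap (exact permutation p = 0.1 each, the smallest possible, two-sided). Group means in null and hHKDC1 OE fat were 96.5% and 62.8% for Ighm, 0.964% and 25.3% for IgG and 2.19% and 0.680% for Igha. With 1 library left out, the difference in the Ighm share (-33.7 percentage points) ran from -25.9 (without hHKDC1 OE replicate 3) to -48.5 (without hHKDC1 OE replicate 2). The 6 exact permutation tests of isotype shares over both tissues could not go below p = 0.1 each.

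Within the IgG genes of hHKDC1 OE fat, Ighg2c led with 50.3%, 52.6% and 57.9% of IgG FPKM. Ighg2b followed with 22.8%, 23.4% and 29.5%, and Ighg1 with 13.9%, 12.1% and 10.5%. The order of the first 2 rests on the gene lengths behind FPKM, 1326 bases for Ighg2c and 2678 for Ighg2b: in counts they were close, and Ighg2b was higher in replicate 3. These shares were close in all 3 libraries although their IgG counts ran from 749 to 12463. Ighg3 varied more, at 13.05%, 11.9% and 2.08%.

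Liver had a broader mixture than null fat. In null liver Ighm took 71.2%, 43.6% and 52.8% of heavy constant FPKM, IgG 12.98%, 21.1% and 30.3%, and Igha 14.6%, 34.7% and 15.99%. In hHKDC1 OE liver Ighm took 31.7%, 82.9% and 15.5%, IgG 51.7%, 8.93% and 60.7%, and Igha 14.8%, 7.47% and 22.1%. The vector groups overlapped for all 3 shares (exact permutation p = 0.6, 0.4 and 0.5 for Ighm, IgG and Igha). Replicate 2 of hHKDC1 OE liver, like replicate 2 of hHKDC1 OE fat, had the highest Ighm share of its group.

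**Figure D3:**
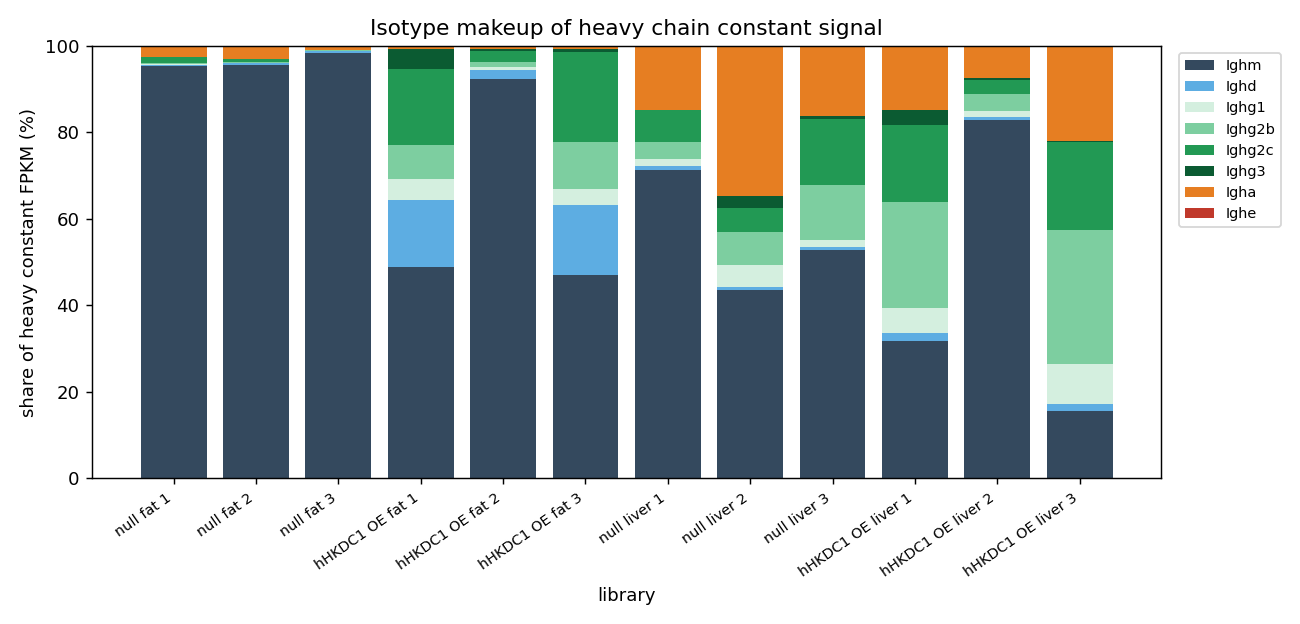
Share of each heavy constant gene in the summed heavy constant FPKM (percent, stacked to 100) for the 12 libraries, whose totals run from 8.57 to 600 FPKM. Ighm fills 95.4% to 98.4% in null fat against 92.4% in hHKDC1 OE fat replicate 2, and IgG genes take 34.8% and 36.2% in replicates 1 and 3 of that group.

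Heavy and light chains were out of proportion in null fat. The ratio of Ighm to Igkc FPKM was 5.13, 7.64 and 20.01 in null fat, against 0.186, 1.59 and 0.256 in hHKDC1 OE fat, with no overlap (exact permutation p = 0.1). Liver libraries lay at 0.0543 to 0.819. With Ighm set aside, the ratio of the other heavy constant genes to all light constant genes was 0.123 to 0.373 over the 12 libraries, 0.246 to 0.307 in null fat and 0.123 to 0.250 in hHKDC1 OE fat. The surplus of heavy over light constant FPKM in null fat was thus a surplus of Ighm.

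Heavy V counts were few beside the Ighm counts of null fat. For each 1000 heavy constant counts there were 12.5, 6.46 and 2.85 heavy V counts in null fat against 36.4, 25.8 and 53.3 in hHKDC1 OE fat (exact permutation p = 0.1, no overlap). Liver libraries had 50.0 to 128. Against heavy constant counts other than Ighm, null fat had 235, 117 and 147 heavy V counts per 1000, within the 107 to 242 of the liver libraries. In hHKDC1 OE fat this value was 69.9, 322 and 101. The libraries do not keep strand, so Ighm counts could include transcripts of either strand.

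Kappa chains predominated over lambda in all libraries. Igkc made up 99.4%, 85.7% and 94.1% of light constant FPKM in null fat against 91.9%, 93.9% and 87.3% in hHKDC1 OE fat, with overlapping groups (exact permutation p = 0.7). In liver it made up 89.1%, 88.4% and 95.7% in null and 92.8%, 95.04% and 96.4% in hHKDC1 OE mice (exact permutation p = 0.3). Null fat rests on few lambda counts (3, 22 and 7 in the 3 libraries). The 95% Wilson interval of the kappa share of counts was 79.7% to 90.6% in null fat replicate 2, and such intervals cover counting error only. In kappa and lambda V gene counts the fat difference had the opposite sign, with a kappa share of 98.6%, 71.6% and 72.0% in null fat against 91.4%, 95.3% and 85.9% in hHKDC1 OE fat.

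More V genes were seen in hHKDC1 OE fat, along with more V counts. With at least 1 count, 37, 22 and 26 of 218 V genes were seen in null fat against 169, 106 and 149 in hHKDC1 OE fat. Null liver had 34, 22 and 69, and hHKDC1 OE liver 60, 44 and 68. V counts per library were 366, 92 and 76 in null fat. In hHKDC1 OE fat they were 5438, 1222 and 2836, and in liver 128, 51 and 218 for null and 204, 111 and 221 for hHKDC1 OE mice. The 34 V genes with no count in any library were the only members without counts.

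At equal depth the fat groups were closer. Thinned to 51 V counts, the smallest library, the expected number of V genes was 16.04, 19.4 and 22.6 in null fat against 35.5, 23.1 and 36.1 in hHKDC1 OE fat. Replicate 2 of hHKDC1 OE fat was just above the highest null library. Liver libraries lay at 22.0 to 33.4. Thinned to 1222 V counts, the hHKDC1 OE fat libraries held 140, 106 and 136 V genes, so replicate 2 was less diverse than the others also at its own depth.

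Heavy, kappa and lambda V genes were all drawn on in hHKDC1 OE fat. Of 113 heavy V genes 81, 45 and 73 were seen, of 102 kappa V genes 85, 59 and 73, and of 3 lambda V genes 3, 2 and 3. Over its 3 libraries 182 V genes were seen at least once and 94 in every library, against 61 and 4 in null fat. There were 122 V genes with counts in hHKDC1 OE fat and none in null fat, and 1 of the reverse kind. Only Iglv1 had counts in every one of the 12 libraries.

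**Figure D4:**
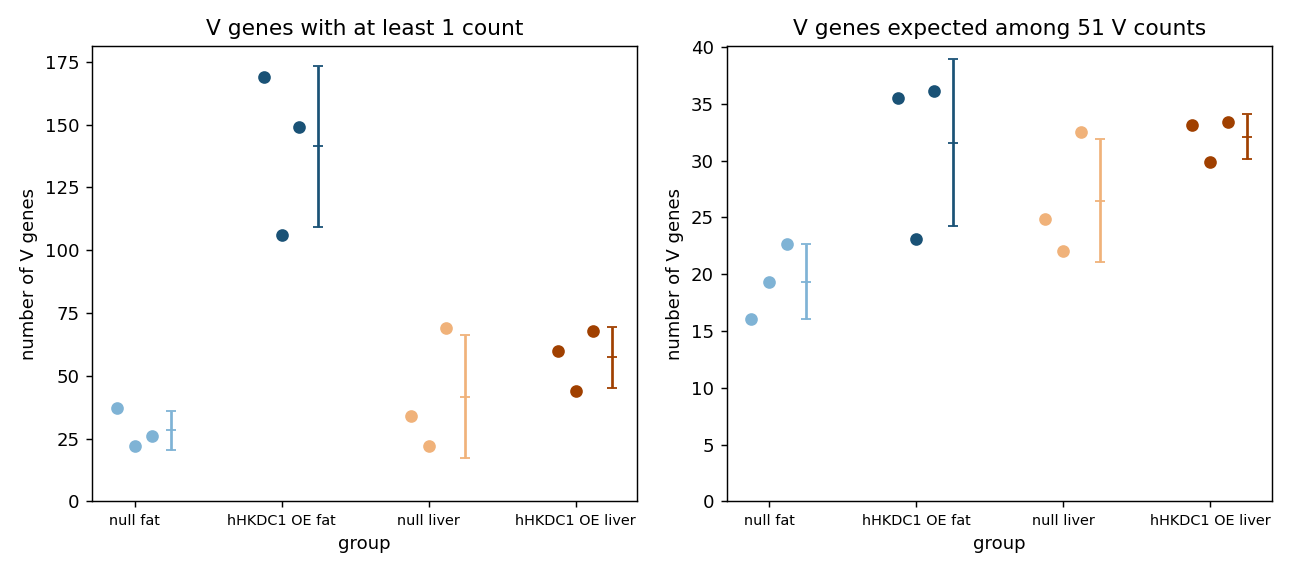
Number of V genes with at least 1 count (left) and number expected when each library is thinned to 51 V counts (right), by group; points are libraries and bars are the mean with the SD (n = 3). The unthinned numbers separate hHKDC1 OE fat (106 to 169) from null fat (22 to 37), and after thinning hHKDC1 OE fat replicate 2 (23.1) lies next to the null fat libraries (16.04 to 22.6).

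A few V genes dominated single libraries. Ighv1-80 had 87 counts in null fat replicate 1, 23.8% of its V counts (95% Wilson interval 19.7% to 28.4%), and 3 and 0 counts in the other null fat libraries. In hHKDC1 OE fat it had 50, 0 and 29. Igkv14-126 had 78, 13 and 0 counts in null fat against 29, 335 and 7 in hHKDC1 OE fat, where the 335 were 27.4% of the V counts of replicate 2 (24.99% to 29.98%). It had no count in any liver library.

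Ighv11-2 followed Igkv14-126 across the fat libraries, with 22, 4 and 0 counts in null fat against 11, 174 and 4 in hHKDC1 OE fat. These 2 segments are known as the pair used by B-1a cells, an innate-like B cell subset, to bind phosphatidylcholine. Together they made up 27.3%, 18.5% and 0% of V counts in null fat against 0.736%, 41.7% and 0.388% in hHKDC1 OE fat. In liver they had 3 counts in null replicate 3 and 0 in the other 5 libraries. The pair was summed after these values had been seen. Neither gene passed the test in fat (log2 fold changes 2.55 ± 1.60 and 1.72 ± 1.63 (SE), adjusted p = 0.427 and 0.586 in edgeR for Ighv11-2 and Igkv14-126).

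The other hHKDC1 OE fat libraries were more even. Igkv2-112 led replicate 1 with 271 counts, 4.98% of its V counts, and had 48 and 7 in replicates 2 and 3 and 2, 0 and 0 in null fat. Iglv1 led replicate 3 with 168 counts (5.92%) and had 248 and 26 in replicates 1 and 2, against 2, 13 and 8 in null fat. Igkv1-117 had 145, 96 and 145 counts in hHKDC1 OE fat and 0, 0 and 2 in null fat. Igkv1-110 had 264, 24 and 59 against 4, 0 and 0, and Igkv10-96 had 207, 21 and 61 against 4, 3 and 0. These genes were above the null range in each hHKDC1 OE fat library.

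In hHKDC1 OE fat 6 more V genes had their lowest count in replicate 2. Ighv5-4 had 4, 0 and 69 counts there, and it was also the V gene, tied with Ighv6-3, with the most counts in null liver replicate 3 (13 counts). Ighv1-72 had 16, 1 and 41 counts there and led null fat replicate 3 with 9. Ighv1-53 had 93, 10 and 50 counts and was at 0 in null fat. Among the lambda genes Iglv2 had 48, 13 and 22 counts against 1, 6 and 3, and Iglv3 had 64, 0 and 67 against 0, 0 and 3. Igkv3-12 had 47, 2 and 39 counts against 0 in null fat.

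The leading V genes of liver rested on few counts. Ighv1-56 led null replicates 1 and 2 with 16 and 6 counts, and it had 0 to 3 counts in each fat library. In hHKDC1 OE liver Igkv3-12 led replicate 1 with 15 counts, Iglv1 led replicate 2 with 11, and Igkv10-96 led replicate 3 with 12, tied with Ighv9-3.

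**Figure D5:**
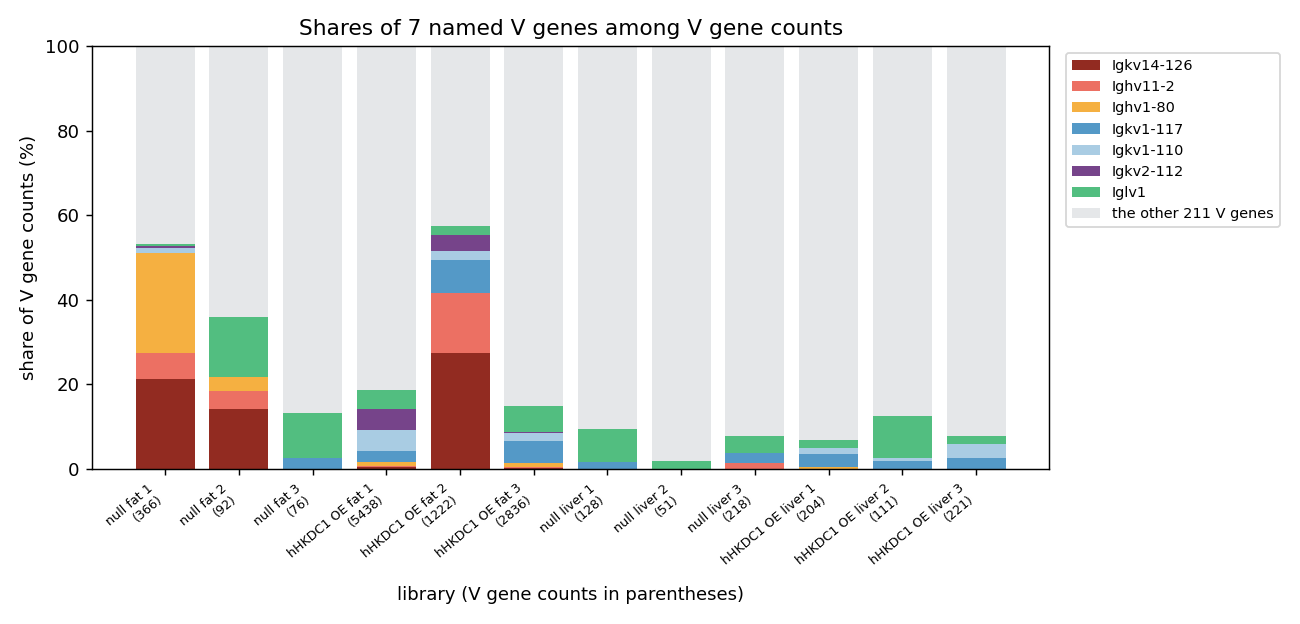
Share of all V gene counts (percent) taken by 7 named V genes and by the other 211, for the 12 libraries, with the V count of each library in parentheses. Igkv14-126 and Ighv11-2 together fill 27.3% and 18.5% of null fat replicates 1 and 2 and 41.7% of hHKDC1 OE fat replicate 2, and 0.736% or less of the other 2 hHKDC1 OE fat libraries.

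In liver the immunoglobulin level did not separate the vector groups. Summed over the 231 genes, null liver held 86.4, 30.8 and 141 CPM and hHKDC1 OE liver held 155, 89.8 and 126 CPM, a log2 difference of 0.73 (exact permutation p = 0.4). It was 0.12 without null replicate 2, 1.21 without null replicate 3 and 0.39 over V genes alone. Only 7 C genes and no V gene had enough counts for the test. In edgeR 0 of 7 were higher at an adjusted p under 0.05, as were 0% of all genes tested, and 1 of 7 was higher at an unadjusted p under 0.05, against 3.89%. DESeq2 called 0 of 7, against 0.315%.

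That gene was Ighg1, with 13, 13 and 17 counts in null liver and 69, 15 and 95 in hHKDC1 OE liver (log2 fold change 1.89 ± 0.62 (SE), adjusted p = 0.593, edgeR). Without hHKDC1 OE liver replicate 2 its adjusted p was 0.0241, and edgeR then called 1 of 8 tested members, against 0.567% of all genes. Ighg2b had 37, 20 and 141 counts against 298, 50 and 326, Igkc 170, 69 and 584 against 615, 246 and 597, and Ighg2c 34, 7 and 84 against 107, 19 and 106. Each of these overlapped between groups. Ighm had 460, 80 and 413 counts against 272, 714 and 115, and Igha 133, 90 and 177 against 179, 91 and 232. Of the 138 members with a count in liver, 6 were higher and 2 lower without overlap, against 4.64% and 4.44% of all genes with a count.

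B cell genes were low in liver, where the 12 summed to 2.41 to 8.76 CPM in null and 4.46 to 7.88 CPM in hHKDC1 OE mice. The null liver range takes in much of the null fat range of 1.88 to 4.61 CPM, and the hHKDC1 OE liver range only its upper end. Of this list 2 were tested in liver and 0 passed in edgeR or DESeq2, with 0 at an unadjusted p under 0.05. Plasma cell genes summed to 555 to 629 and 484 to 780 CPM in null and hHKDC1 OE liver, of which Sdc1 and Xbp1, also expressed by other cells, made up means of 273 and 263 CPM in null liver. Of this list 7 were tested in liver and 0 passed in edgeR or DESeq2, against 0% and 0.674% of all genes. At an unadjusted p under 0.05, 2 were higher, against 3.89% of all genes. Jchain had 36, 18 and 130 counts in null liver and 119, 51 and 115 in hHKDC1 OE liver.

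Fat and liver were then compared within each vector group. Null fat held more immunoglobulin signal than null liver, by 2.20 on the log2 scale (exact permutation p = 0.1, no overlap). The difference was 3.09 when scaled by library size alone and 1.37 in summed FPKM, where the groups were less separated (exact permutation p = 0.2). This rested on Ighm: without it the difference was -0.79, and over V genes alone -0.69. In edgeR, fitted over all 12 libraries, 1 of 30 tested members was higher in null fat, against 32.1% of all genes, and 2 were lower, against 27.6%. The gene that was higher was Ighm (log2 difference 3.62 ± 0.71, adjusted p = 0.000906, edgeR). Lower were Ighg1 (2, 0 and 0 counts in fat against 13, 13 and 17 in liver, adjusted p = 0.0137 in edgeR) and Igkv3-2 (0 counts in fat against 3, 1 and 8). Igkv3-2 is named because it was 1 of these 3, and was chosen after its values were seen. It entered the fit through its 170, 15 and 71 counts in hHKDC1 OE fat, a group outside this comparison, and nothing is drawn from its call. With the 6 null libraries alone, 7 members passed the filter, Igkv3-2 not among them, and 1 was higher and 2 lower (against 33.8% and 30.5% of all genes). Scaling by library size alone moved the median log2 difference of all genes from 0.16 to 1.05. Of 30 tested members 4 were then higher and 2 lower, against 56.2% and 13.3% of all genes. With the replicate number as a block, 4 of 30 were higher and 5 lower, against 30.6% and 27% of all genes. The labels do not say whether fat and liver libraries of one number share a mouse.

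In hHKDC1 OE mice fat exceeded liver by 3.50 on the log2 scale (exact permutation p = 0.1, no overlap). In edgeR 23 of 30 tested members were higher in fat, against 34.7% of all genes, and 0 were lower, against 24.2%. These members could pass the filter through hHKDC1 OE fat alone, and 7 passed it with the 6 null libraries, so their share is not evidence about the 231. Without a filter, 50 of 197 were higher, against 19.8% of all genes. Without hHKDC1 OE fat replicate 2, 53 of 77 tested members were higher, against 31.4%. Ighd differed by 7.01 ± 0.94 (SE; adjusted p = 4.6e-05, edgeR) and Ighm by 4.21 ± 0.73 (adjusted p = 0.000356, edgeR). Igkc was higher in fat by 3.69 ± 0.98 (adjusted p = 0.00623, edgeR). Igha was the only constant gene tested that was not called, at -0.58 ± 0.53 (adjusted p = 0.365, edgeR).

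Whether the effect of the vector differed between tissues was tested as an interaction over all 12 libraries. In edgeR 0 of 30 members passed an adjusted p of 0.05, as did 0% of all genes in that direction, and the lowest adjusted p was 0.139. At an unadjusted p under 0.05, 15 of 30 had a larger increase in fat, against 9% of all genes, and DESeq2 called 9 of 30, against 2.31%. The limit given for the filter holds here too. Without a filter edgeR called 15 of 197, against 1.36%, and without hHKDC1 OE fat replicate 2 it called 17 of 77, against 3.92%. Of the constant genes with more than 3 counts in each group, Iglc2 had the largest estimate, 7.51 ± 1.70 (SE) on the log2 scale, and the estimate for Ighm was 0.59 ± 0.91.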

How the data were processed

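RNA was sequenced from 6 subcutaneous fat and 6 liver samples in unstranded libraries. Per the labels, the authors aligned reads with STAR 2.5 and counted them with HTSeq 0.6.1; the methods name a further STAR version and a human reference, but the gene identifiers are mouse Ensembl. The deposited read counts per gene are raw, and the deposited FPKM values equal counts divided by gene length and DESeq2 size factors for 100% of 252371 values above 0 (within 1%). Biotype, gene length and position were taken from the deposited annotation columns. Group means and the authors' fold change and p-value tables were not used.

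Counts were tested with edgeR 4.0.16 (TMM, filterByExpr, quasi-likelihood F test, Benjamini-Hochberg over all genes tested, threshold 0.05), fat and liver each alone and tissue contrasts over 12 libraries. Alternatives were DESeq2 1.42.0, other scalings and filters, a replicate block and leaving out each library. Single values per library were compared by two-sided exact permutation tests (scipy 1.17.1), and folds against 0 counts use a floor of 3 counts per library. FPKM served for comparisons between genes. Replicates differed beyond sampling noise and each was counted as its own sample, although this does not show that liver libraries come from separate mice. Genes named are all C genes, the 3 V genes of highest mean CPM per locus and the V gene with the most counts in each library. Where 2 rows carried a symbol (Ccl21a, Ccl19), the one with more counts was used. Sequences are from GENCODE M21, in which all 231 members have the same position. Members, gene lists and tests were chosen with earlier results of these data known. Replicate numbers were not used as pairs in the main fits, and whether they pair the libraries was not settled. Same-numbered libraries correlated at 0.219, 0.184 and 0.088 between the liver groups and at 0.241, 0.028 and 0.139 between null fat and null liver. The values were -0.122 to 0.030 between the fat groups and 0.0025 to 0.054 between hHKDC1 OE fat and liver. In no comparison were all 3 above 0.1.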

Additional observations from a re-analysis of the deposited data

Results flagged for a closer look

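Outside the V and C genes, summed counts of J segment genes in both tissues and of V pseudogenes in fat were above the level in null libraries. The 19 D segment genes and 3 D pseudogenes had 0 to 3 counts in each library. The 14 J segment genes summed to 83, 14 and 69 counts in hHKDC1 OE fat (166 in all) and to 5, 2 and 0 in null fat. In liver they summed to 3, 5 and 3 counts in hHKDC1 OE mice (11 in all) and to 0, 0 and 1 in null mice. The 155 V pseudogenes summed to 47, 9 and 16 counts in hHKDC1 OE fat (72 in all) and to 0 in null fat and both liver groups. These differences were not tested.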

How the results depend on the processing

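The number of members called in fat (0 of 27) was 21 of 27 with DESeq2 (7.85% of all genes). It was 34 of 196 without a filter (2.69%), 9 of 27 with the replicate block (1.03%) and 19 of 30 with 12 libraries in 1 fit (5.13%). With libraries left out it was 0 to 65 among 28 to 90 tested members (0% to 18.9%). In liver (0 of 7) it was 3 of 138 without a filter (1.32%). With libraries left out it was 0 to 1 among 8 to 9 tested members (0% to 1.07%). Without the filter, edgeR's prior degrees of freedom rose in liver from 5.37 to infinity and in fat from 3.08 to 8.33. For null fat against null liver (3 of 30, 59.6%) it was 6 of 30 with DESeq2 (62.2%) or library size alone (69.6%). It was 13 of 197 without a filter (31.5%) and 1 of 4 with at least 10 counts in every library (62.2%). With the replicate block it was 9 of 30 (57.6%). With libraries left out it was 3 to 7 among 79 to 89 tested members (50.4% to 52.7%). It was 5 to 7 without each library other than null liver replicate 3. For hHKDC1 OE fat against liver (23 of 30, 58.8%) it was 50 of 197 without a filter (32.4%) and 3 of 4 with at least 10 counts (59.8%). With libraries left out it was 17 to 53 among 32 to 89 tested members (50.5% to 56.6%). The interaction (0 of 30) gave 9 of 30 with DESeq2 (2.89%), 15 of 197 without a filter (1.53%) and 1 of 30 with the replicate block (0.0234%). With libraries left out it gave 0 to 17 among 32 to 89 tested members (0% to 6.77%). The block changed no other count of calls by over 1.5 times. Between the liver groups each library correlated best with its own number. Between null fat and null liver this held for all but null liver replicate 2, which correlated best with null fat replicate 3 (0.045 against 0.028).

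The mean number of V genes in null fat (28.3) was 16.7 and 2.67 at a minimum of 3 and 10 counts and 19.3 when thinned; in hHKDC1 OE fat (141) it was 69.7 at 10 counts and 31.6 thinned; in null liver (41.7) 17.7, 2.00 and 26.5 at 3 counts, at 10 counts and thinned; in hHKDC1 OE liver (57.3) 27, 1.33 and 32.1. With libraries left out it was 24.0 to 31.5, 128 to 159, 28.0 to 51.5 and 52 to 64.0.

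Signs turned in these cases. Null fat against null liver gave -0.69 over V genes and -0.79 without Ighm (leaving out Ighm was chosen after seeing the data) and 1.59 to 2.68 with libraries left out. The kappa share difference in fat (-2.04 percentage points) was 10.1 in V counts and -5.72 to 1.13 with libraries left out, and in liver (3.68) it was -0.36 in V counts. With libraries left out, the Ighm share difference in liver (-12.5) ran from -32.3 without hHKDC1 OE replicate 2 to 1.44 without hHKDC1 OE replicate 3, the 1 library that turned its sign. The difference of the liver Ighm to Igkc ratio (-0.097) was lowest (-0.34) without hHKDC1 OE replicate 2 and highest (0.0693) when null replicate 1 was dropped, and was also above 0 without hHKDC1 OE replicate 1 or 3. Among log2 fold changes, none of them called, leaving out libraries gave -0.73 to 0.44 for Igha in fat, -1.05 to 3.81 for Ighv1-80 and -1.01 to 3.95 for Igkv14-126, and in liver -0.80 to 0.47 for Ighm and -0.079 to 0.48 for Igha. The block turned Ighv1-80 to 0.27 in fat and Ighm to -0.14 in liver. The causes were not tested. Libraries of null fat and liver held 51 to 366 V counts, so V genes of low level could go unseen there.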
